A study of Arabidopsis thaliana with 4 samples.

Results

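The regions described here are long runs of closely spaced RNA polymerase V (Pol V) summits in the Arabidopsis thaliana genome. They were found by sorting the listed Pol V summits along each chromosome, joining neighbouring summits at most 3000 bp apart, and keeping every run that held at least 6 summits. This gave 121 runs with 884 of the 11478 listed summits (7.70%). The other 10594 summits stood alone or in shorter runs. The members were thus chosen by the measured positions of the summits alone, so the crowding and the minimum length of the runs are properties of the rule and not findings.

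The study asked where DRD1, DMS3 and RDM1, the components of the DDR complex, lie on chromatin relative to Pol V. It made 4 anti-Flag ChIP-seq libraries from untreated inflorescences, 1 each from untransformed Col0 plants and from plants carrying DRD1-Flag, DMS3-Flag or RDM1-Flag. Per the paper, RDM1-Flag was put into an rdm1 mutant, for which Wassilewskija served as wild type. The DRD1-Flag and DMS3-Flag lines came from earlier work. The signals of these 4 libraries were not analysed here. The list of summits comes from a single peak call on published Pol V ChIP-seq against a ChIP without antibody, with 1 position and 1 whole-number score per peak. The score was written by the peak caller, and the list does not say in which unit. No replicate or read count stands behind a single summit, so the depth is unknown, no replicate error can be given and no test was made. Confidence intervals on shares are 95% Wilson intervals and cover counting error only. They are too narrow where the summits of a run share their surroundings.

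Pol V is a plant-specific RNA polymerase that transcribes the loci acted on by RNA-directed DNA methylation (RdDM). Its transcripts stay near the chromatin and are recognised by small interfering RNAs bound to ARGONAUTE proteins, which bring the methyltransferase DRM2 to the locus, where cytosines are methylated in all sequence contexts. RdDM is best known for silencing transposons and other repeats, many of which lie near genes or in the gene-poor DNA around the centromeres, and a number of protein-coding genes lie next to such repeats.

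Several runs lay over tandem copies of a gene or a repeat, and short stretches from pairs of copies show how far the copies at different summits of a run differ. The stretches below were read from RefSeq TAIR10.1, all on the plus strand, and are written 5′ to 3′. Capitals mark the bases that differ between the copies of a pair or that are missing in the other copy. The pairs were chosen after their values were seen, as the pairs in which gene copies or repeat copies could be set side by side. In each pair the stretch was placed at the summit of the first copy, and the second line is the sequence aligned to it, which holds the second summit in every pair but that of WAKL2 and WAKL4, where it lies close by. The first 5 pairs lie in coding sequence and the last lies outside every annotated gene.
GH9B11, chr2:18393266-18393326: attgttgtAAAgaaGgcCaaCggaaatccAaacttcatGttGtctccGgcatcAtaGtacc
GH9B12, chr2:18395874-18395934: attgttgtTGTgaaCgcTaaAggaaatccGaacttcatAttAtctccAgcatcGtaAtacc
AT4G10210, chr4:6358946-6359006: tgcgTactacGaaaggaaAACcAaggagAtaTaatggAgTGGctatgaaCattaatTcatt
AT4G10220, chr4:6363850-6363907: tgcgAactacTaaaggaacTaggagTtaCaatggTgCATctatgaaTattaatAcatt
WAKL2, chr1:5527645-5527705: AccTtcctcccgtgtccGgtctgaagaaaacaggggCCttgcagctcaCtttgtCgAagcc
WAKL4, chr1:5534460-5534520: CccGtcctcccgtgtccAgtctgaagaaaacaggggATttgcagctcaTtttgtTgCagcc
AT5G41500, chr5:16604438-16604498: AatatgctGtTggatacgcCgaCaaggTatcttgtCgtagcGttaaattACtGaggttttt
AT5G41510, chr5:16607560-16607620: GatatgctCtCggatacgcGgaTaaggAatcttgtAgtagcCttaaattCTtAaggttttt
AT3G55665, chr3:20653909-20653969: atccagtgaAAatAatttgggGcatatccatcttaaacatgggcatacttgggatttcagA
AT3G55672, chr3:20661151-20661211: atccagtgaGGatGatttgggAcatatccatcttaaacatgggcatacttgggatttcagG
intergenic repeat, first copy, chr4:8265458-8265518: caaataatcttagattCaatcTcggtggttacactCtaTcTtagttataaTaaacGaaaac
intergenic repeat, second copy, chr4:8266300-8266359: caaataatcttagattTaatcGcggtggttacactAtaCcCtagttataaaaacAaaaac

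Over the 61 aligned columns, 12 bases differed between the GH9B copies, 8 between the WAKL copies, 11 between the F-box copies AT5G41500 and AT5G41510, and 5 between AT3G55665 and AT3G55672, which encode proteins of the plant self-incompatibility S1 family. The stretches of AT4G10210 and AT4G10220 differed at 11 columns and by gaps at 3. The intergenic pair differed at 6 columns and by a gap at 1.

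Runs also held microRNA genes, and their mature sequences are shown because the second longest run contains the whole MIR447 cluster and because a summit lay inside the mature sequence of a microRNA in a pair of other runs. In the sequences below, taken from RefSeq TAIR10.1 and written 5′ to 3′ as RNA, the seed, bases 2 to 8, is in capitals.
miR447a-3p, chr4:1528190-1528211, minus strand: uUGGGGACgagauguuuuguug
miR447b, chr4:1535482-1535503, minus strand: uUGGGGACgagauguuuuguug
miR447c-3p, chr4:1523362-1523383, minus strand: uUGGGGACgacaucuuuuguug
miR447c-5p, chr4:1523445-1523465, minus strand: cCCCUUACaaugucgaguaaa
miR396a-5p, chr2:4142443-4142463, minus strand: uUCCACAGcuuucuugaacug
miR8168, chr2:5080690-5080710, plus strand: aGGUGCUGagugugcuagugc

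The sequences of miR447a-3p, miR447b and miR447c-3p share their seed. Among their precursors, that of MIR447c held a summit, at chr4:1523444 with a score of 81, and this lay 1 bp outside the listed miR447c-5p. The summit in MIR396a, whose microRNA is known to target transcripts of growth-regulating factors, had a score of 354 and lay within miR396a-5p. The summit in MIR8168 had a score of 273 and lay within the mature sequence. Of the 326 microRNA genes in the annotation, 12 (3.68%) overlapped a run and 3 held a run summit. A run summit was held by 134 of 27444 protein-coding genes (0.488%) and 64 of 4843 pseudogenes. The share of genes overlapping a run was 0.670% for protein-coding genes, 1.84% for pseudogenes and 1.58% for long non-coding RNA genes. Among pseudogenes annotated as transcribed it was 3.56%, close to that of microRNA genes. The MIR447 genes share a run, and MIR1887 and MIR867 share another, so the 12 microRNA genes are not independent. A run covers both summits and the DNA between them, so overlap with a run is not a summit in the gene.

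The runs were short beside the chromosomes. From first to last summit they measured 3690 to 32318 bp, with a median of 8260 bp, quartiles of 6757 and 10444 bp and a mean of 8891 ± 3623 bp (SD, n = 121 runs). Together they covered 1075801 bp, or 0.903% of the nuclear genome. There were 56 runs of 6 summits, 32 of 7, 13 of 8, 10 of 9, 2 of 10, 5 of 11 and 1 each of 12, 20 and 23. The runs of 23 and of 20 summits thus stood well apart from the rest in number, and they were also the longest, as the plot of summits and span shows.

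**Figure D1:**
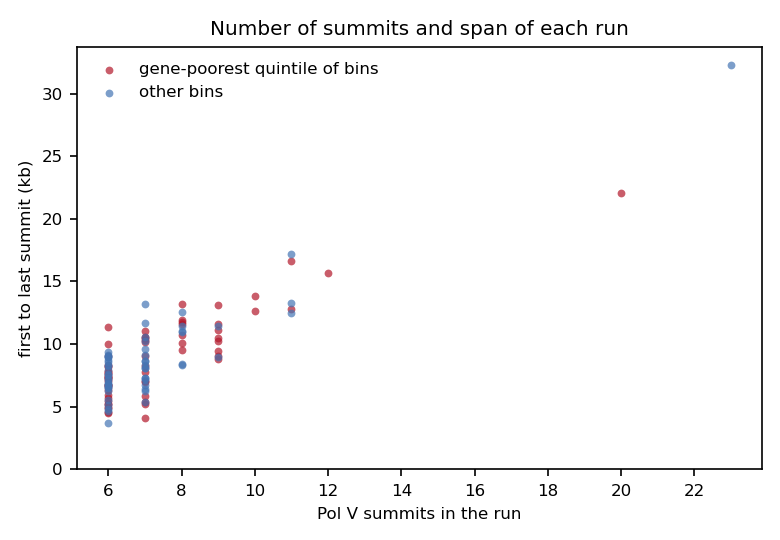
Each point is 1 of the 121 runs, with its number of summits on the x axis and the distance from its first to its last summit in kb on the y axis, coloured by whether its midpoint lies in the gene-poorest quintile of 500 kb bins. Most runs held 6 to 9 summits, and the runs of 20 and 23 summits spanned 22074 and 32318 bp.

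Inside the runs, consecutive summits lay 267 to 2996 bp apart, with a median step of 1256 bp over 763 steps. Steps under 500 bp were few (36, 4.72%), whereas 217 steps (28.4%) measured at least 500 and under 1000 bp, 343 (45.0%) at least 1000 and under 2000 bp, and 167 (21.9%) from 2000 to 3000 bp. A run summit had a median of 3 other summits within 3000 bp, and at most 7. At least 3 such neighbours were present for 506 of the 884 run summits (57.2%) and for 591 of the 10594 others (5.58%), a difference that the rule itself makes.

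The rule drew its line through a continuous series. Next to the 56 runs of 6 summits, with a median span of 7158 bp and a median score of 125.5, there were 126 runs of 5 summits, with a median span of 5632.5 bp and a median score of 120.5. Of the runs of 5, 35 had a further summit over 3000 and up to 4000 bp beyond an end. Of the 242 gaps from an end of a long run to the next summit outside it, 45 also measured over 3000 and up to 4000 bp. The median of these gaps was 6985 bp and the largest was 101109 bp.

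Every chromosome carried runs. Chromosome 1 had 29 runs (0.953 per Mb), chromosome 2 had 25 (1.27 per Mb), chromosome 3 had 19 (0.810 per Mb), chromosome 4 had 24 (1.29 per Mb) and chromosome 5 had 24 (0.890 per Mb). The share of a chromosome's summits that stood in runs was highest on chromosome 4, at 10.2%, and lowest on chromosome 3, at 6.59%. In places the runs lay close to each other. In all, 27 of the 121 runs had another run within 50 kb. Of 235 full bins of 500 kb, 70 held a run summit and 16 held at least 20. The bin from 10000001 to 10500000 on chromosome 5 held 37 run summits among its 108 summits, in 5 runs, and the bin from 16500001 to 17000000 on chromosome 1 held 35 among 126.

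The runs were concentrated where protein-coding genes were sparse. When the 500 kb bins were ranked by the number of protein-coding genes that start in them, the gene-poorest quintile, 47 bins with 1 to 90 gene starts each, held 480 of the 884 run summits (54.3%, interval 51.0 to 57.6%) and 2243 of the other summits (21.2%, interval 20.4 to 22.0%). The 2 gene-poorest quintiles together held 80.2% of the run summits and 51.7% of the others. By midpoint, 65 runs lay in the gene-poorest quintile, 30 in the next, and then 12, 8 and 6. Put the other way round, 17.6% of the summits of the gene-poorest quintile stood in runs, compared with 6.61% in the next quintile and 3.49, 3.17 and 3.35% in the 3 remaining quintiles. The second gene-poorest quintile held 229 run summits and 3238 others, and thus more summits in all than the gene-poorest. More summits in a bin leave less room between them, and how far their number accounts for the runs of a bin was not tested.

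**Figure D2:**
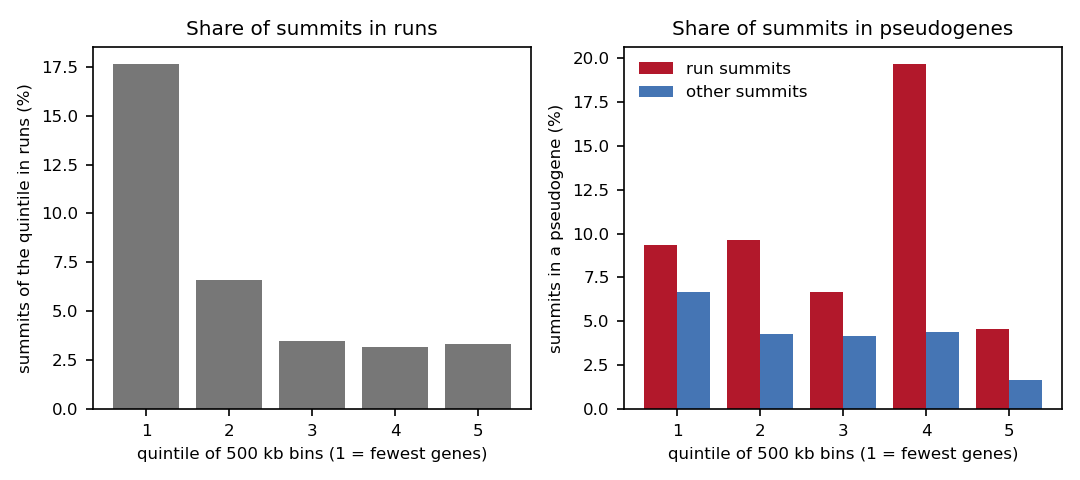
The left panel shows, for each quintile of 500 kb bins ordered from fewest to most protein-coding gene starts, the percent of Pol V summits that stand in runs, and the right panel the percent of run summits and of other summits that lie in a pseudogene. The left bars fall from 17.6% in the gene-poorest quintile to 3.49% in the third, and the right bars for run summits rest on 45, 22, 5, 11 and 2 summits from left to right.

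Most run summits lay outside every annotated gene. This held for 582 of 884 (65.8%, interval 62.6 to 68.9%), against 70.6% of the other summits (interval 69.7 to 71.4%). Protein-coding genes held 198 run summits (22.4%, interval 19.8 to 25.3%), which is the share found among the other summits (22.5%, interval 21.7 to 23.3%). Exons of protein-coding genes held 147 run summits (16.6%, against 17.7% of the others), and coding sequence held 115 (13.0%, against 13.6%). Non-coding RNA genes held 19 run summits (2.15%, against 2.47%). Outside genes, the median distance to the nearest protein-coding gene was 1389.5 bp for 582 run summits and 762 bp for 7475 other summits. This distance was not split by gene density, and 54.3% of all run summits but 21.2% of the others lay in the gene-poorest bins.

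Pseudogenes held a larger share of the run summits than of the rest. They held 85 run summits (9.62%, interval 7.84 to 11.7%) and 474 other summits (4.47%, interval 4.10 to 4.88%). The difference was smaller in the gene-poorest quintile of bins, where the shares were 9.38% of run summits and 6.69% of the others. In the next quintile they were 9.61% and 4.29%. Protein-coding genes held 17.5% of the run summits and 12.1% of the others in the gene-poorest quintile, 24.5% and 19.8% in the next, and 28% and 24.3% in the third. The order was the opposite in the next quintile, with 19.6% and 30.4%, and in the gene-richest the shares were 59.1% and 33.4%. The last 3 pairs rest on 75, 56 and 44 run summits. By bases, pseudogenes made up 10.2% of the run spans, 8.68% of the genome and 32.9% of the gene-poorest bins. The annotation used has no class for transposable elements, and most of the pseudogenes have the product name uncharacterized protein.

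Seen run by run, 100 of the 121 runs contained at least part of a protein-coding gene, 55 a pseudogene and 50 a non-coding RNA gene. A summit fell in a protein-coding gene in 85 runs and in a pseudogene in 40. In 18 runs all summits lay outside annotated genes, and 8 of these 121 runs had no annotated gene in their span at all. In 3 runs all summits lay in annotated genes. In total 134 protein-coding genes and 64 pseudogenes held a run summit, and 45 and 21 of them held more than 1.

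The longest run, with 23 summits, covered chr2:1232487-1264805. From its first to its last summit the scores were 32, 269, 330, 94, 54, 239, 30, 46, 188, 141, 115, 32, 219, 798, 102, 54, 265, 335, 382, 62, 158, 551 and 108. High and low summits were interspersed along the run. Its highest summit, with a score of 798, lay in an exon of AT2G03965, which is annotated as an uncharacterized protein. AT2G03980, which encodes a GDSL-like lipase, held 3 summits with scores of 382, 62 and 158. AT2G03955 encodes a small cysteine-rich protein, a class that includes many secreted signalling and defence peptides, and held a summit with a score of 239. The pseudogenes AT2G03940, AT2G03950, AT2G03960, AT2G03970 and AT2G03972, the last annotated as a pseudogene of a heat shock protein, held 1 summit each, with scores of 32, 269, 115, 102 and 54. The remaining annotated summits were in the long non-coding RNA genes AT2G04615, with a score of 54, and AT2G04645, with a score of 219, and 11 of the 23 lay outside genes.

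The run of 20 summits, chr4:1521043-1543117, was the one with the MIR447 genes. It also held 4 genes for ankyrin repeat proteins, which carry a repeat known to bind other proteins. AT4G03440 held summits with scores of 66, 49 and 80, AT4G03450 with 57, 53 and 81, AT4G03460 with 80, 76 and 76, and AT4G03470 with 43 and 35. All 11 summits in these genes thus scored 81 or less, and 10 of the 11 lay in exons. The 4 highest summits of the run, with scores of 453, 284, 366 and 213, all lay outside annotated genes. The first of them was at the start of the run, 480 bp upstream of AT4G03430, and the third was 2099 bp upstream of AT4G03450, between MIR447a and MIR447b. With 4 protein-coding genes that hold a summit, this run and the GH9B run shared the highest number of such genes among the 121.

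**Figure D3:**
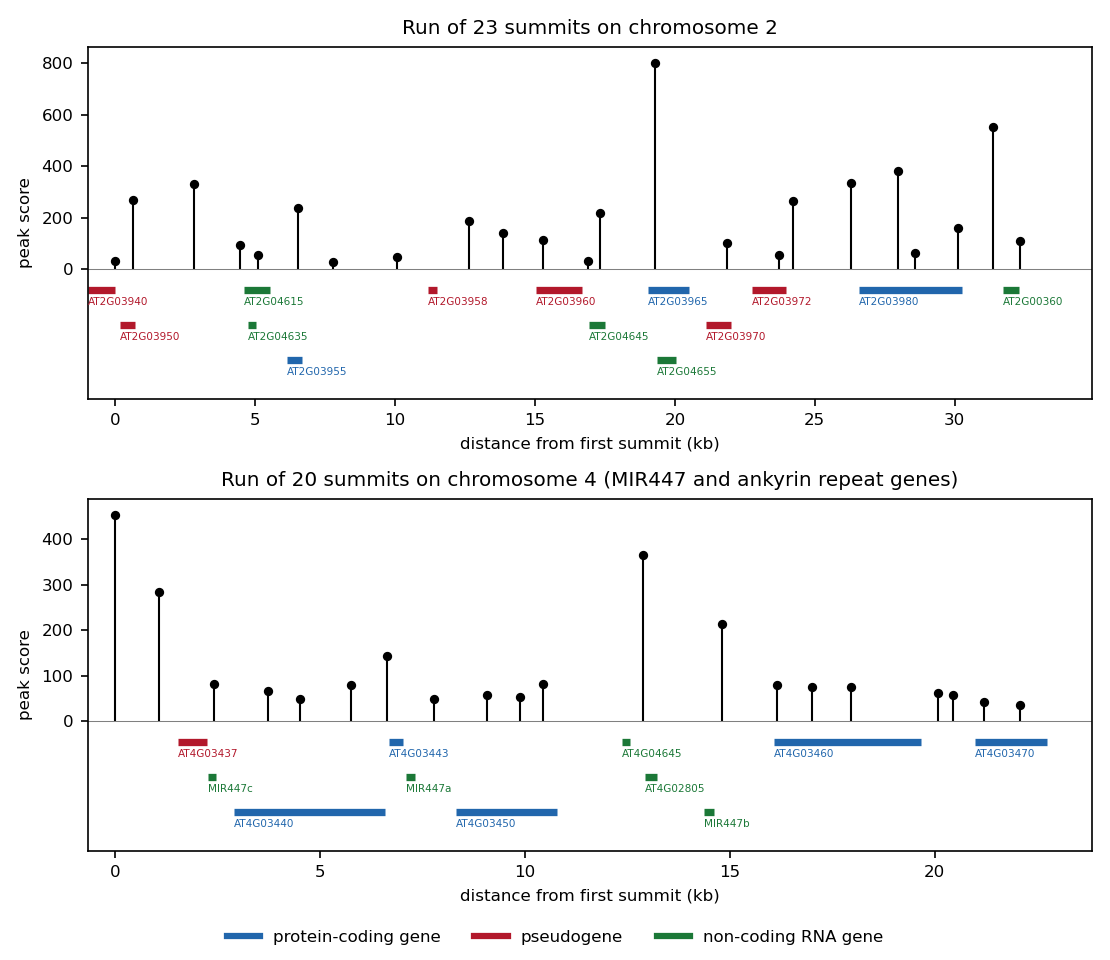
The 23 summits of the longest run on chromosome 2 and the 20 summits of the MIR447 run on chromosome 4 are drawn as vertical lines with the peak score on the y axis and the distance from the first summit in kb on the x axis, above the annotated protein-coding genes, pseudogenes and non-coding RNA genes, which are cropped at the ends of a run. In the lower panel the summits over the ankyrin repeat genes all score 81 or less, and the highest summit between them, at 366, lies in the gap between MIR447a and MIR447b.

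The sequence around that inner summit is shown because it is the highest point between the MIR447 genes, and the sequence around the highest summit of all runs because it has no CG dinucleotide in the 101 bases shown. CG dinucleotides, the symmetrical context in which methylation is copied by MET1, are in capitals. Both are from RefSeq TAIR10.1, plus strand, 5′ to 3′, and both lie outside annotated genes.
MIR447 run, score 366, chr4:1533868-1533968: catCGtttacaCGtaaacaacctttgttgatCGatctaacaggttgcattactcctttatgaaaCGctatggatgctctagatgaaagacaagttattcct
highest summit, score 1392, chr4:5634788-5634888: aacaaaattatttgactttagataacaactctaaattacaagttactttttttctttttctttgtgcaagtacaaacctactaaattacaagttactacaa

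The first stretch has 4 CG dinucleotides and a GC content of 37.6%, the second none and 23.8%. Windows of 250 bp on each side of run summits held a mean of 22.5 cytosines in CG, counted on both strands. A single short stretch does not tell whether high summits differ in this. The highest summit, chosen after its value was seen, lay 1059 bp downstream of PUM11, a gene for an RNA-binding protein of the pumilio family. The long non-coding RNA gene AT4G05605 lay nearer and starts at chr4:5634932, just past the stretch shown. Its run, chr4:5629902-5637728, had scores of 188, 58, 35, 1392, 120 and 248, so that its top summit stood far above the other 5. The last summits of this run were in AT4G08850, a gene for a leucine-rich repeat receptor-like kinase.

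The third run by number of summits, chr3:15666734-15682432, had 12 summits and overlapped no protein-coding gene. Its scores were 137, 145, 45, 196, 35, 46, 125, 39, 104, 37, 85 and 215. The pseudogene AT3G43825 held 3 of them (35, 46 and 125). The pseudogenes AT3G43820, AT3G43828, AT3G43830 and AT3G43832 held 1 each (45, 104, 37 and 215), and the long non-coding RNA gene AT3G06675 held 1 (85). Pseudogenes made up 51.7% of the bases of this run. A second run dominated by pseudogenes, chr5:10630149-10646798, had 11 summits, of which 4 with scores of 39, 67, 52 and 55 lay in AT5G28635, 1 with a score of 35 in AT5G28625, and 1 with a score of 675 in SADHU1-3. SADHU elements are short retroposons of Arabidopsis known to be silenced to different degrees in different strains. The SADHU1-3 summit was the highest of its run, and the next highest, with scores of 280 and 294, lay at its far end outside genes.

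Other long runs were made up mostly of summits between genes. The run chr4:11369827-11383111 had 10 of its 11 summits outside genes, with scores of 445, 259, 243, 672, 75, 239, 739, 114, 136 and 57, and 1 in the pseudogene AT4G21363 with a score of 158. MIR1887 and MIR867 lay within it and held no summit. In the run chr5:9635904-9648418, 1 of 11 summits was in AT5G27340 (152), an uncharacterized gene, and the scores of the others ran up to 821, at the end of the run, 90 bp upstream of AT5G27350. In the run chr3:15601438-15614220, with scores of 40 to 241, 1 of 11 summits was in AT3G43710, which encodes a galactose oxidase/kelch repeat protein (40), and 1 in the long non-coding RNA gene AT3G06655 (135). The run chr1:12887209-12901043, with 10 summits of 47 to 435, had 1 summit in AT1G35190, a gene for a 2-oxoglutarate-dependent oxygenase (99), and 1 in AT1G35210 (76).

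The remaining pair, runs of 11 and 10 summits, had scores that differed widely. In the run chr4:6192514-6209722 a summit with a score of 655 lay in the long non-coding RNA gene AT4G05740, whereas AT4G09850, AT4G09860 and the F-box gene AT4G09870 held summits with scores of 143, 67 and 342. Its second highest summit was its last and lay outside genes. In the run chr5:10205985-10218665 a summit with a score of 1337 lay 974 bp upstream of AT5G28237, which encodes a pyridoxal phosphate-dependent enzyme. AT5G28237 itself held summits with scores of 142, 164 and 196, and the pseudogene AT5G28240 behind the high summit held 1 with a score of 226.

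Some runs lay over tandem gene copies, and in some pairs of copies the summits lay nearer to matching places than in others. The largest shares of similar windows were found in a run over GH9B genes, chr2:18387219-18395899, and a run over a pair of DUF239 genes, chr4:6357493-6363902. In each, 6 of 7 summits (85.7%) had a window, within 250 bp of the summit, that aligned over at least 100 bp at 80% identity or more with the window of another summit of the run. Only summits with such windows were paired, so that no distance between them after alignment could exceed 250 bp. GH9B genes encode glycosyl hydrolases of family 9, the family of plant endoglucanases. GH9B9 held summits with scores of 77 and 742, GH9B10 1 with 62, GH9B11 held 69 and 337, and GH9B12 held 805. The seventh summit, with a score of 606, lay 47 bp upstream of GH9B10. In order along the run the scores were 77, 742, 62, 606, 69, 337 and 805, so that GH9B9 and GH9B11 each held a low and a higher summit. The summits of 337 in GH9B11 and 805 in GH9B12 lay 5 bp apart once their windows were aligned, at 83.7% identity over 497 bp. The summits of 77 in GH9B9 and 62 in GH9B10 lay 27 bp apart, at 91.1% identity over 474 bp. The summit of 742 in GH9B9 had similar windows at the summits of 606, 337 and 805 as well, but there the matching positions were 185, 220 and 231 bp apart.

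In the DUF239 run all 7 summits lay in the genes AT4G10210 (62, 67, 110 and 637) and AT4G10220 (85, 104 and 89), which both lie within the span of an annotated pseudogene, AT4G10201. The first 3 summits of AT4G10210 and the 3 of AT4G10220 matched in order, at distances of 4887, 4883 and 4926 bp. After alignment their positions differed by 70, 41 and 25 bp, at 80.1 to 80.8% identity. The summit with a score of 637 had no similar window in AT4G10220, so that the 3 low summits recurred and the high one did not.

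The WAKL run, chr1:5526042-5534417, held wall-associated kinase-like genes, which encode receptor-like kinases linked to the cell wall. WAKL2 held summits with scores of 43, 48 and 77, the pseudogene WAKL3 held 99 and 113, and WAKL4 held 389 and 192. Scores were lowest in WAKL2 and highest in WAKL4. The first summit of WAKL2 and the first of WAKL4 differed by 107 bp after alignment (84.5% identity over 418 bp), and the last of each by 73 bp (89.3% over 428 bp). In a run on chromosome 5, the F-box genes AT5G41500 and AT5G41510 held summits with scores of 201 and 205 that lay 19 bp apart after alignment, at 86.7% identity over 482 bp. F-box proteins choose the targets of ubiquitin ligases. In a run on chromosome 3, AT3G55665 and AT3G55672 held summits with scores of 125 and 164, 8 bp apart after alignment at 90.4% identity over 488 bp. The first of these also lay in the small nuclear RNA gene U5.4, which overlaps AT3G55665. These WAKL, F-box and S1 runs were chosen after their values were seen, and other gene copies matched less closely. In a run on chromosome 1, the summits of the F-box gene AT1G30930 (194) and the pseudogene AT1G30935 (139) lay 129 bp apart after alignment, and those of AT1G30935 and the pseudogene AT1G30940 (278) lay 185 bp apart. The summits of AT1G26400 (67) and AT1G26420 (46) lay 134 bp apart. For NAC004 (200) and NAC005 (138), and for AT1G30930 and AT1G30940, the windows were similar but the first summit lay outside the alignment.

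**Figure D4:**
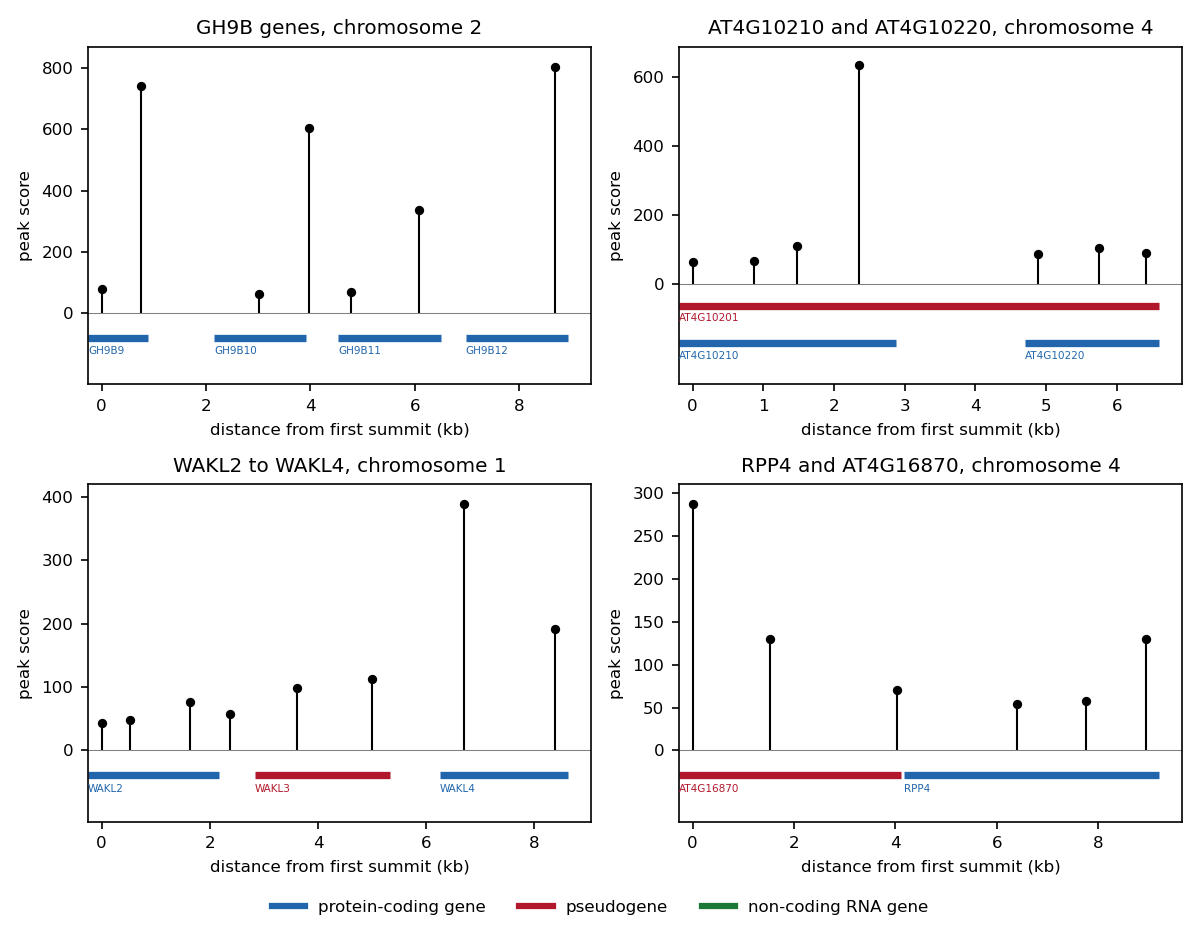
Peak score against distance from the first summit in kb for 4 runs over gene copies, with protein-coding genes in blue and pseudogenes in red below each axis, cropped at the ends of the run. GH9B copies carry high and low summits (62 to 805), the 3 low summits of AT4G10210 recur in AT4G10220, scores rise from WAKL2 to WAKL4, and the pseudogene AT4G16870 and its neighbour RPP4 hold 3 summits each.

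Across all runs, such matches were the exception. A similar window in the same run was found for 72 of the 884 run summits (8.14%, interval 6.52 to 10.1%). For the other summits this number was 272 of 10594 (2.57%), but 4206 of these stood alone and could have no partner. The rest stood in shorter runs, where fewer partners are at hand. Pair by pair the shares were close. Of 1195 pairs of windows in long runs that lay over the width of a window and up to 3000 bp apart, 26 (2.18%, interval 1.49 to 3.17%) were similar, and in runs of 2 to 5 summits 124 of 4675 (2.65%, interval 2.23 to 3.15%). A similar window anywhere in the list was found for 48.3% of the run summits and 48.8% of the others. The similar pairs within long runs numbered 44, in 27 runs, with 36 in the same orientation and 8 inverted, and with identities of 80.1 to 100% (median 86.7%). For 29 of them the summit lay inside the alignment. Among these the matching positions differed by a median of 95 bp, and by at most 50 bp in 10. Differences over 250 bp could not occur, because the windows reach only 250 bp from the summit. An intergenic run, chr4:8262403-8267048, had 4 windows that were all similar to each other, with scores of 176, 67, 80 and 84. The first of these was the highest.

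Disease resistance genes of the NLR class encode intracellular immune receptors and often lie in clusters. Of the 4 NLR genes with a run summit, AT1G58602 held 7, more than any other protein-coding gene, with scores of 287, 42, 32, 170, 89, 30 and 405. None of the 7 lay in an annotated exon of this gene of 19695 bp, and the summits of 42 and 32 also lay in the pseudogene AT1G58561 inside it. The 7 summits belonged to neighbouring runs, chr1:21739089-21747329 and chr1:21751165-21758449, which were kept apart by a gap of 3836 bp. The first of these had 5 further summits before the gene, with scores of 65, 477, 735, 191 and 418, the last of them 154 bp upstream of the gene start. Summits upstream of AT1G58602 thus reached higher scores than those in it.

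RPP4, known for resistance to downy mildew, held 3 summits with scores of 54, 58 and 130, and the neighbouring pseudogene AT4G16870 held 3 with scores of 287, 130 and 70. All 6 summits of this run lay in genes. AT4G19530 held 2 summits with scores of 47 and 596, and AT4G19520 held 1 with a score of 97. Between these genes, which face away from each other, lay summits with scores of 669, 1190, 70 and 131. The highest was 1535 bp upstream of AT4G19520.

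The 4 NLR genes with a run summit made up 2.99% of the 134 protein-coding genes that held one. NLR genes were 1.45% of the 2072 protein-coding genes that held any other summit, and 0.813% of all. F-box genes numbered 11 of the 134 (8.21%), against 6.66% of those with other summits and 2.50% of all. Their highest were AT1G31163 (1187), AT1G30920 (649), AT5G41490 (351) and AT4G09870 (342). Protein kinase genes numbered 6 (4.48%, against 5.26 and 3.56%), with WAKL4 (389), AT4G08850 (248), AT4G00960 (125) and WAKL2 (77) highest. Genes for small cysteine-rich peptides numbered 4 (2.99%, against 2.51 and 2.50%), namely AT2G03955 (239), AT1G44224 (89), LCR33 (62) and AT2G03913 (39). Cytochrome P450 genes numbered 1 (0.746%, against 2.03 and 0.926%), AT2G12190 with a score of 67, and AGAMOUS-like genes 1 (0.746%, against 0.965 and 0.470%), the MADS-box gene AGL104 with a score of 51. The F-box share stood closer to that of genes with other summits than to that of all genes, but AT5G41490, AT5G41500 and AT5G41510 lie in the same run. The NLR share stood above both, but it rests on 4 genes, of which AT4G19520 and AT4G19530 share a run. For the remaining lists the differences were too small to place them, and each share rests on 11 genes or fewer.

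Genes that the annotation text or symbol names as derived from transposons were likewise few. They were 2 of the 134 protein-coding genes (1.49%, against 1.01% of those with other summits and 0.445% of all) and 3 of the 64 pseudogenes (4.69%, against 1.21 and 0.599%). The highest were AT2G41590, a Ta11-like non-LTR retrotransposon (819), SADHU1-3 (675), AT4G04650, related to reverse transcriptases (425), and AT2G13431, a pseudogene that the annotation notes as a transposable element gene (80). The match by text marked only 29 of all 4843 pseudogenes. Transposon genes that the text does not name would be missed, so these counts do not give the number of transposon genes in runs. Of 29 listed genes of the RdDM and DNA methylation machinery, 0 held a run summit and 0 overlapped a run, while 5 held another summit. The list does not include DMT2, annotated as DNA methyltransferase 2, which held 1 run summit with a score of 170. Over all protein-coding genes, 0.488% held a run summit, 0.670% overlapped a run and 7.55% held another summit, so that 29 genes are too few for a count of 0 to set this list apart.

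Beside the genes already described, several genes of known function held more than 1 run summit. PIN4, a carrier that moves auxin out of cells, held 4 with scores of 53, 100, 67 and 445. The highest lay next to its 5′ end. PAP11, a purple acid phosphatase, held 3 (75, 315 and 147). ARGAH2, an arginase, held 3 (332, 47 and 40). AT1G22120 (42, 344 and 58) and AT5G28920 (93, 95 and 67), both of unknown function, also held 3. In most of these genes, 1 summit stood well above the others, and AT5G28920 was the exception.

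Among the genes with 2 run summits were genes for photoprotection and transport. NPQ4, which encodes the PsbS protein of photoprotection, held 355 and 81, and the amino acid permease gene AAP5 held 130 and 366. ALMT6, a malate transporter gene, held 176 and 262. The receptor-like protein gene RLP7 held 509 and 40, and the transcription factor gene NAC004 held 38 and 200. In enzyme genes, summits of 102 and 79 lay in BGLU16, a beta glucosidase gene, of 272 and 405 in AT1G44542, a cyclase gene, of 258 and 459 in AT5G22860, a serine carboxypeptidase gene, and of 485 and 99 in scpl1, a gene of a related family. AT2G16580, of the SAUR family of auxin-responsive genes, held 316 and 52, and AT2G38250, a homeodomain-like gene, held 45 and 282. AT3G28925, annotated as a structural maintenance of chromosomes protein, held 588 and 41. The other genes with 2 were AT1G30925, AT3G55670 and AT5G36200 of the F-box family, AT4G00960 of the kinases, AT2G12190 of the cytochromes P450, and AT1G35320, AT1G35625, AT1G35895, AT2G02650, AT2G12170, AT2G13430 and AT4G05490, with scores from 32 to 549.

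The scores, which come from the same peak call as the positions, are given as a description. The median was 125 for run summits (quartiles 66 and 272) and 174 for the others, and 534 run summits (60.4%) scored below the median of the list, 169, against 49.0% of the others. The median went from 213 for single summits to 163 in runs of 2 and 138 in runs of 3 to 5. It was 129.5 in runs of 6 or 7 and 120 in runs of 8 or more. In runs of exactly 5 it was 120.5 and in runs of exactly 6 it was 125.5, so from 5 summits on it showed no steady fall. The same order of run summits below others held within the gene-poorest quintile of bins (109 and 130) and in the next (147 and 176). By class, the medians of run summits and others were 89 and 103 in protein-coding genes, 80 and 152.5 in pseudogenes, 142 and 194 outside genes, and 273 and 224.5 in non-coding RNA genes, where the order was the opposite and run summits numbered 19.

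Low medians did not mean that a run had no high summit. The highest score of a run had a median of 476 (range 99 to 1392) and the lowest a median of 42 (range 28 to 114). Within a run the highest was 2.15 to 47.8 times the lowest, with a median of 11.03, and the highest summit alone held a median of 35.5% of the summed score. All summits scored below the median of the list in 1 run and at or above it in 0 runs. A score of 1000 or more was reached by 1 summit in each of 11 runs. The highest summit was at an end of the run in 41 of 121 runs (33.9%). End summits were 27.4% of run summits, a share pooled over summits, in which the longest runs weigh most. In the 56 runs of 6 summits the ends make up a larger share, so these figures do not show a preference for ends. The medians of end and inner summits were 130 and 120. The highest mean score, 439, belonged to a run of 6 summits, chr1:11126089-11132709, with scores of 42, 150, 193, 1187, 111 and 951. The summit of 1187 lay in an exon of the F-box gene AT1G31163 and that of 951 lay 701 bp upstream of AT1G31170.

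**Figure D5:**
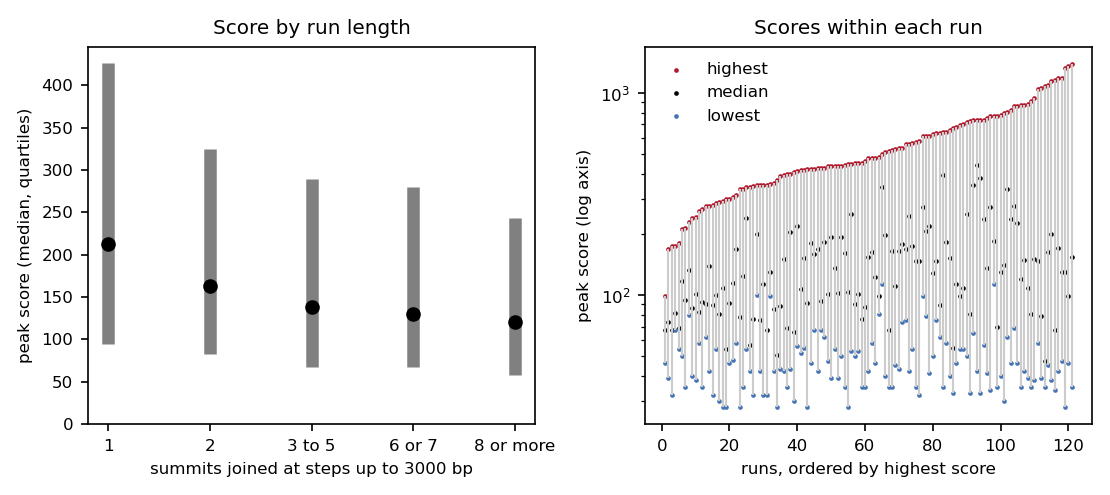
The left panel shows the median (point) and quartiles (bar) of the peak score for summits in runs of each length, and the right panel the highest, median and lowest score of each of the 121 runs on a log axis, ordered by the highest. The medians go from 213 for single summits to 138 in runs of 3 to 5, 129.5 in runs of 6 or 7 and 120 in runs of 8 or more. Each run joins low summits (28 to 114) with a higher one (99 to 1392).

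In base composition and uniqueness, run summits were much like the rest. The mean GC content within 250 bp was 33.1 ± 6.02% (SD, n = 884) for run summits and 32.4 ± 6.26% (SD, n = 10594) for others, a difference far smaller than the spread within either. Of the cytosines in these windows on both strands, 74.2% stood in the CHH context for run summits and for others alike, 13.6 and 14.01% in CG, and 12.2 and 11.7% in CHG. On average 98.6% of the 50-base sequences around run summits occurred once in the genome, and 97.9% around others. Over the whole spans of the runs this share was 97.04%, against 93.8% of the nuclear genome and 81.0% of the gene-poorest bins. The study kept only uniquely mapping reads, so that DNA without unique sequence could give no summit, and how far this shaped the runs was not tested.

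The most crowded run, chosen after its values were seen, shows that a run needs no gene. On chromosome 5, 7 summits lay within 4106 bp, chr5:10420159-10424265, with scores of 32, 94, 170, 35, 176, 67 and 66. No annotated gene lay in the span, and the nearest protein-coding gene, AT5G28470, started 4468 bp from its last summit. All scores but 170 and 176 were below 100, and no windows in this run were similar to each other.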

How the data were processed

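Per the labels, 4 anti-Flag ChIP-seq libraries were made, 1 for each line, and none of their signals was used. The authors aligned published Pol V and no-antibody reads to TAIR10 with Bowtie 1.0.0, keeping unique reads, removed duplicates with SAMtools 0.1.19, called peaks with MACS2, and kept those above a fold limit. The deposited list gives a summit position and a score per peak. The score is the authors' value, and its depth is unknown. After 1 blank record was left out, summits at most 3000 bp apart were joined and runs of 6 or more kept.

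Gene classes came from RefSeq TAIR10.1, whose chromosome lengths hold all positions, taking protein-coding genes first, then pseudogenes, then non-coding RNA genes. Bins of 500 kb were ranked by protein-coding gene starts. Windows of 250 bp on each side were compared with blastn (BLAST 2.17.0, E-value 1e-05), counting alignments of at least 100 bp at 80% identity between windows that do not overlap. Exact 50-base sequences were counted on both strands, organelles included. Joining was tested on simulated positions. Calculations used NumPy 2.4.6 and SciPy 1.17.1 under Python 3.11.15, and plots matplotlib 3.10.9.

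The rule, the gene lists and the alternatives were chosen with earlier results of these data known. Runs named by rule are the 10 with most summits and those with the highest mean score, most protein-coding genes holding a summit and largest share of similar windows. Other runs are named for the genes below or were chosen after their values were seen. Genes named by rule are those holding a summit in the 10 longest runs, every protein-coding gene with 2 or more run summits, and up to 4 genes per list by score. The gene lists were matched by annotation text or symbol. No test was run, because the positions chose the members.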

Additional observations from a re-analysis of the deposited data

How the results depend on the processing

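The values rest on the rule. With a largest step of 2000 bp there were 51 runs with 336 summits, a median span of 6116 bp and a median step of 1095 bp, 13.4% of the run summits lay in pseudogenes, the mean GC content was 33.9% and 59.8% lay in gene-poor bins. With 4000 bp there were 217 runs with 1646 summits, a median span of 10521 bp and a median step of 1453 bp, and 48.8% lay in gene-poor bins. Runs of at least 5 summits numbered 247 with 1514 summits and a median span of 6756 bp, with 7.79% of the summits in pseudogenes and 48.5% in gene-poor bins. Runs of at least 8 numbered 33 with 324 summits and a median span of 11584 bp, with 12.3% in pseudogenes, a GC content of 33.6% and 62.3% in gene-poor bins. After summits within 1000 bp were merged there were 44 runs with 300 summits, a median span of 9578.5 bp, a median step of 1708 bp and a median score of 163.5, and 58.7% of the summits lay outside genes, 26% in protein-coding genes and 12.7% in pseudogenes, with a GC content of 33.7%. From summits that scored at or above the median of the list, 2 runs with 12 summits could be built, with a median span of 10758.5 bp, a median step of 2338 bp and a median score of 368. Of these 12, 58.3% lay outside genes, 41.7% in protein-coding genes, 0% in pseudogenes and 50% in gene-poor bins, 0% had a similar window, and the GC content was 32.8%. In a window of 100 bp on each side the GC content was 34.5%, and exons of protein-coding genes held 16.6% of the run summits. With bins of 1 Mb, 50.6% lay in gene-poor bins. Similar windows were found for 2.49% at 90% identity and for 5.204% over 200 bp. The other 25 values stayed within the 95% interval of the main value. For GC content that interval, 32.9 to 33.2%, is too narrow beside the spread of the windows, so that small shifts fell outside it.

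The score does not give the depth of a peak, 1 peak call has no replicate, and 1 position per peak drops its width. No paired analysis was possible because each line has 1 library and no test was run. Most long runs contain summits of low score, and the number of runs depends on them.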
